A study of Homo sapiens with 4 samples.

Results

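Skipped exons that could end at more than 1 5' splice site were compared between control and SNRPB2-depleted breast cancer cells. An exon was a member when another skipped exon used the same 3' splice site but a different 5' splice site (donor) at most 200 nt away, with at least 10 informative reads for each exon in each group. Informative reads are those that fit only inclusion or only skipping of the exon. The rule used positions and read numbers, and no inclusion value. It found 1697 of the 34037 skipped exons listed for both groups, and 21474 exons in all had the same read minimum. The members lay in 750 genes and formed 946 pairs of a longer and a shorter variant at 814 3' splice sites. Of these sites, 749 had 2 variants, 61 had 3 and 4 had 4, so some exons stand in several pairs.

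The cells were MDA-LM2, human breast cancer cells that descend from the MDA-MB-231 line and were selected for metastasis to the lung. One group was transfected with a control siRNA (siCtrl) and the other with siRNA against SNRPB2 (siSNRPB2), with 2 libraries of total RNA each, made 48 h after transfection. According to the labels 2 siRNAs were used and each lowered SNRPB2 by more than 95% in qPCR; which siRNA gave which library is not given in the sources used here. All libraries came from 1 cell line, and the deposited values are 1 per group, so no difference below could be set against a spread between replicates. No skipped-exon event lay in SNRPB2, so the depletion could not be read from these values. Among markers listed for this cell type, CD44 had 50227 reads on its deepest event in siCtrl and 38883 in siSNRPB2, and ZEB1 had 3895 and 3989. FN1 had 2987 and 2141, and SPARC had 108 and 92. Of the luminal markers, the keratin KRT8 had 13755 and 11312 reads, GATA3 had 353 and 173, and ESR1 had 1 and 10. The blood markers PTPRC and CD3E had 51 and 8, and 1 and 30. No event was listed for VIM, CAV1, CDH1, EPCAM, KRT18, PECAM1 or CDH5.

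The donor of an intron is first recognised by the U1 snRNP, whose RNA pairs with the last exon bases and the first intron bases, and is later handed to the U6 RNA. The U2 snRNP, to which the SNRPB2 product U2B'' belongs, binds the branch site near the other end of the intron. Where donors compete for 1 upstream 3' splice site, the choice between them sets the length of the exon and not the site at which it begins, and an extension can shift the reading frame or bring in a stop codon.

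The sequences around the donors of 8 pairs on which the results turn are given with 10 bases of exon and 20 bases after the donor, 5' to 3'. Capitals mark the first 2 bases after the exon end, which are GT in most introns and GC in a minority. Positions are those of the 30 bases on hg38, and the bases are from GENCODE release 29 transcripts in which a single annotated exon runs across the donor.
STK19, longer variant, chr6:31972910-31972939 (+ strand): agtcccgcagGTagtacagggcatttcaaa
STK19, shorter variant, chr6:31972748-31972777 (+ strand): ccggcagctgGTgaggggcgtcggtgcgac
CENPX, longer variant, chr17:82019490-82019519 (- strand): tgtttgtcagGTgctgtggcctggttctgg
CENPX, shorter variant, chr17:82019621-82019650 (- strand): ttcgttgtggGTgagcccagggcccacgct
MAPK12, longer variant, chr22:50256768-50256797 (- strand): gggtgcccagGTaccttggtctgcccttga
MAPK12, shorter variant, chr22:50256915-50256944 (- strand): catccacagaGTgagtcccggtggagaagc
SINHCAF, longer variant, chr12:31304962-31304991 (- strand): gaccaggcctGTatgatctcctgtctaaac
SINHCAF, shorter variant, chr12:31304966-31304995 (- strand): ttcagaccagGCctgtatgatctcctgtct
GPR108, longer variant, chr19:6735520-6735549 (- strand): ggctgatcagGTgggatgagaagcagagag
GPR108, shorter variant, chr19:6735602-6735631 (- strand): aggatctgcaGTgagttggggaccgggggc
EIF2B5, longer variant, chr3:184140721-184140750 (+ strand): tgccacattgGTgagcacaggtggggaatc
EIF2B5, shorter variant, chr3:184140606-184140635 (+ strand): agggcctgagGTcagcctgggccatggcag
STAT6, shorter variant, chr12:57107639-57107668 (- strand): tcaggcctcgGTgggagagcagggggaggg
DDX19A, shorter variant, chr16:70361501-70361530 (+ strand): ttgctgaaccGTgagtatgcagatgaagcg
In each of STK19, CENPX, MAPK12, GPR108 and EIF2B5, GT followed both exon ends. In SINHCAF the shorter exon ended before GC and the longer exon, 4 nt further on, before GT. For STAT6 and DDX19A only the donor of the shorter variant was covered.

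The donors of a pair were a median of 41 nt apart. The most common spacing was 4 nt, with 58 pairs, and the next was 9 nt with 27 pairs, while 5 nt had 26 and 10 nt had 21. In the plot of donor spacing, pairs pile up at short distances and thin out towards 200 nt. A spacing of 1 to 10 nt was found in 183 pairs, 11 to 50 nt in 357 and 51 to 200 nt in 406. The spacing was a multiple of 3, which keeps the reading frame, in 323 pairs or 34.1%. Where both donors lay in coding sequence it was a multiple of 3 in 150 pairs and not in 163. Both donors were coding in 313 pairs, in a 5' UTR in 101 and in a 3' UTR in 66, and 466 pairs were mixed or outside these classes. GENCODE 29 held both exons of 823 pairs, and 87 pairs overlapped more than 1 gene on their strand.

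**Figure D1:**
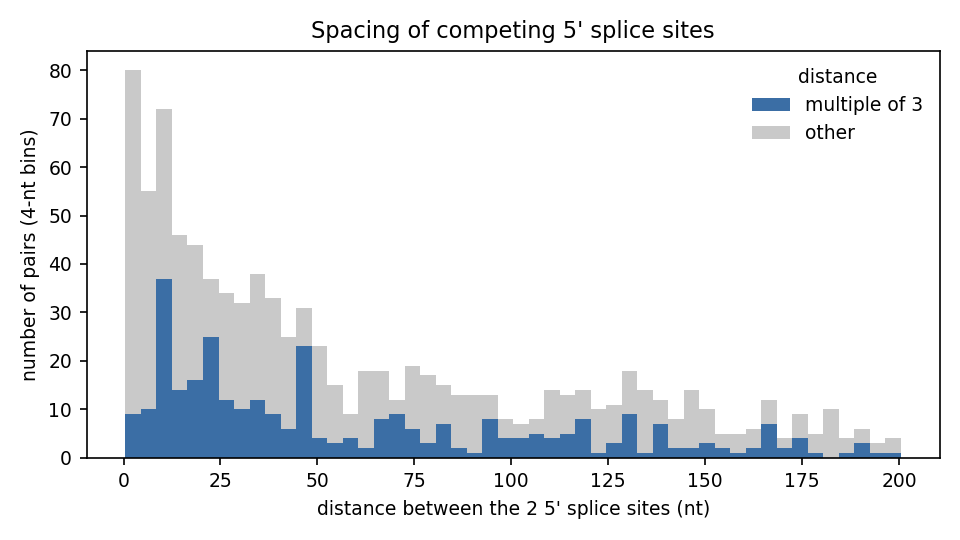
Distance between the 2 donors of each of the 946 pairs (x axis, nt) against the number of pairs per 4-nt bin (y axis), with spacings that are multiples of 3 in blue and all others in grey. Pairs are densest at short spacings, with 58 pairs at 4 nt and a median of 41 nt.

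Of the longer variants 883 different donors were present and 378 could be read, of which 360 (95.2%) were GT, 16 (4.23%) GC and 2 neither. Of the 883 donors of shorter variants 778 could be read, of which 726 (93.3%) were GT, 48 (6.17%) GC and 4 neither. The 9 bases from the third-last exon base to the sixth intron base were CAGGTAAGT when the most frequent base at each position of the shorter donors was taken. In the 408 pairs with both donors read, longer donors shared on average 5.55 of these 9 bases and shorter donors 5.37. The longer donor shared more of them in 164 pairs, the shorter in 116, and both the same number in 128. Of the 58 extensions of 4 nt, 55 could be read and 40 began with GT. GTAG was the most common with 16, followed by GCAG with 8. A longer donor was read only where a further annotated exon ran past it, so these shares describe a selected set.

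The inclusion level ψ is the authors' MISO estimate of inclusion of a given exon variant against its skipping, and not its share of all transcripts. In siCtrl the median ψ was 0.705 for longer and 0.77 for shorter variants, and in siSNRPB2 it was 0.675 and 0.72. The median exon had 153 informative reads as the longer and 115 as the shorter variant in siCtrl, against 134.5 and 105.5 in siSNRPB2. The deposited ψ intervals had median widths of 0.07 and 0.08 in siCtrl and 0.09 and 0.09 in siSNRPB2. The variants lay within 0.1 of each other in 693 pairs in siCtrl and in 669 in siSNRPB2. Both were at 0.9 or above in 333 and 293 pairs, and both at 0.1 or below in 183 and 161. ψ sets each variant against skipping, and the ψ of the 2 variants is no share that adds up to 1. In all 928 pairs measured with the same flanking exons, the 2 variants had equal numbers of exclusion-only reads in both groups. Reads from the exon body and the upstream junction also counted for both variants, so the 2 values of a pair are not independent.

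The ψ of a member was called different when it moved by at least 0.1 with a Bayes factor of at least 10 in the authors' deposited table. By this rule 146 members (8.6%) were lower and 149 (8.78%) higher in siSNRPB2. Over all 21474 exons with enough reads, 7.72% were lower and 7.49% higher, and over the 19777 that were no members 7.67% and 7.39%. The share of members called was thus near the background in both directions, with the difference between the 2 sets not tested. Members were somewhat longer, with a median of 132 nt against 119 nt, and their median ψ difference was 0 in both sets.

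Of the 946 pairs, 227 had a call. Both variants fell in 49 pairs and both rose in 48. Only the longer variant was called in 80 pairs (39 lower and 41 higher) and only the shorter in 47 (24 lower and 23 higher). The variants were called in opposite directions in 3 pairs, those of STK19, MAPK12 and SINHCAF, and 719 pairs had no call. Across the 946 pairs the ψ differences of the longer and the shorter variant had a Pearson correlation of 0.691, a description of values that share reads. In 23 of the 80 pairs with only the longer variant called, the shorter was at 0.9 or above in both groups, and the reverse held in 11 of 47. The plot of paired ψ differences shows the pairs with both variants called along the diagonal and the 3 opposite pairs in the upper left.

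**Figure D2:**
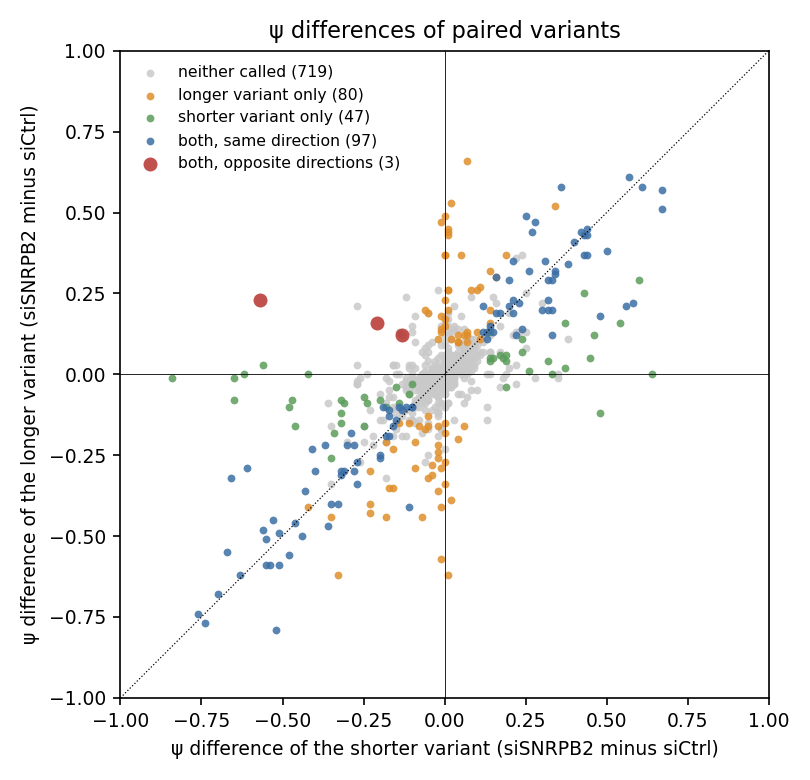
ψ difference (siSNRPB2 minus siCtrl, a fraction) of the longer variant (y axis) against that of the shorter variant (x axis) for 946 pairs, coloured by which variant was called, with a dotted line where both are equal. The 97 pairs called in 1 direction (blue) follow the line, and the 3 pairs called in opposite directions (red) lie in the upper left.

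STK19, a nuclear protein with a role in DNA repair, had 2 donors 162 nt apart on an exon that began at position 31972621 of chromosome 6. In siCtrl ψ was 0.08 (interval 0.05 to 0.13) for the longer and 0.73 (0.68 to 0.78) for the shorter variant. In siSNRPB2 the longer variant rose to 0.24 (0.20 to 0.28) and the shorter fell to 0.52 (0.46 to 0.57). Inclusion-only reads of the longer variant went from 15 to 105, those of the shorter from 261 to 241, and exclusion-only reads from 59 to 140. The shorter exon end is coding and the longer one is annotated in a noncoding transcript. The locus holds a partial near-identical copy of STK19, so its reads are uncertain.

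MAPK12 (p38 gamma, a stress-activated kinase) and SINHCAF (a subunit of the SIN3 histone deacetylase complex) also had opposite calls, with fewer than 50 informative reads for at least 1 variant. They were chosen after their values were seen. In MAPK12, with donors 147 nt apart, the longer variant rose from 0.11 to 0.34 and the shorter fell from 0.74 to 0.17. Inclusion-only reads of the longer and shorter variant were 14 and 20 in siCtrl, and 31 and 4 in siSNRPB2. Exclusion-only reads were 0 in siCtrl and 15 in siSNRPB2, and reads that fit both isoforms were 89 and 24. The share of inclusion-only among informative reads fell in both forms, so the opposite directions are those of ψ and not of that share. In SINHCAF the longer variant rose from 0.01 to 0.13 and the shorter fell from 0.17 to 0.04. The longer variant, with the GT donor printed above, had 0 inclusion-only reads in siCtrl and 16 in siSNRPB2, and the shorter, with the GC donor, had 15 and 4. Neither SINHCAF exon is annotated in GENCODE 29.

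The ψ differences of the variants were at least 0.1 apart in 234 pairs (24.7%). The longer variant had the more positive difference in 125 of them and the shorter in 109. Among the 585 pairs with at least 50 informative reads for each variant in each group, 92 pairs (15.7%) were that far apart. The 8 with the widest gap, 1 per protein-coding gene, are shown in the plot of the widest gaps. STK19 was among them.

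In CENPX, a histone-fold protein of the Fanconi anaemia pathway and the centromere, the shorter variant rose from 0.12 (0.09 to 0.16) to 0.57 (0.49 to 0.64). The longer variant, 131 nt further, was at 0.02 and 0.07. Inclusion-only reads of the shorter variant went from 42 to 158 and those of the longer from 17 to 27, while exclusion-only reads went from 116 to 60. Here the rise was carried by the shorter form, whose donor is printed above.

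STAT6, the transcription factor of interleukin-4 signalling, had donors 54 nt apart. Its shorter variant rose from 0.66 (0.52 to 0.81) to 0.99 (0.95 to 1.0), and its longer variant was at 0.99 in both groups. Inclusion-only reads of the shorter variant went from 113 to 214 and those of the longer from 483 to 445. No exclusion-only read was present in either group, so these ψ values rested on exon reads against the flanking reads that fit both isoforms, 354 in siCtrl and 266 in siSNRPB2.

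In the other 5 genes only the longer variant was called, and no exclusion-only read was present either. DDX19A, an mRNA export helicase, fell from 0.87 (0.74 to 0.99) to 0.46 (0.37 to 0.57) in its longer form, with the shorter form at 1 and 0.99. Its inclusion-only reads went from 229 to 125 for the longer and from 531 to 310 for the shorter form. Reads of the nearly identical neighbour DDX19B can fall on DDX19A. TBCD, a tubulin folding cofactor, fell from 0.91 to 0.55, and OCIAD1, a mitochondrial and endosomal protein, from 0.89 to 0.55. TSR2, a factor of ribosome assembly, rose from 0.51 to 0.88, and FAAP100, of the Fanconi anaemia core complex, from 0.59 to 0.96. Inclusion-only reads of the longer form went from 112 to 103 in TSR2 and from 177 to 128 in FAAP100. The flanking reads that fit both isoforms went from 189 to 94 and from 902 to 302. In these 2 genes ψ rose beside fewer exon reads and a larger drop in flanking reads. In OCIAD1, inclusion-only reads were 119 and 77 for the longer and 1567 and 1318 for the shorter form. Measured as the share of inclusion-only among informative reads, the gap between the variants was 0 in these 5 genes and in STAT6, since without exclusion-only reads that share is always 1. It was -0.276 in CENPX.

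**Figure D3:**
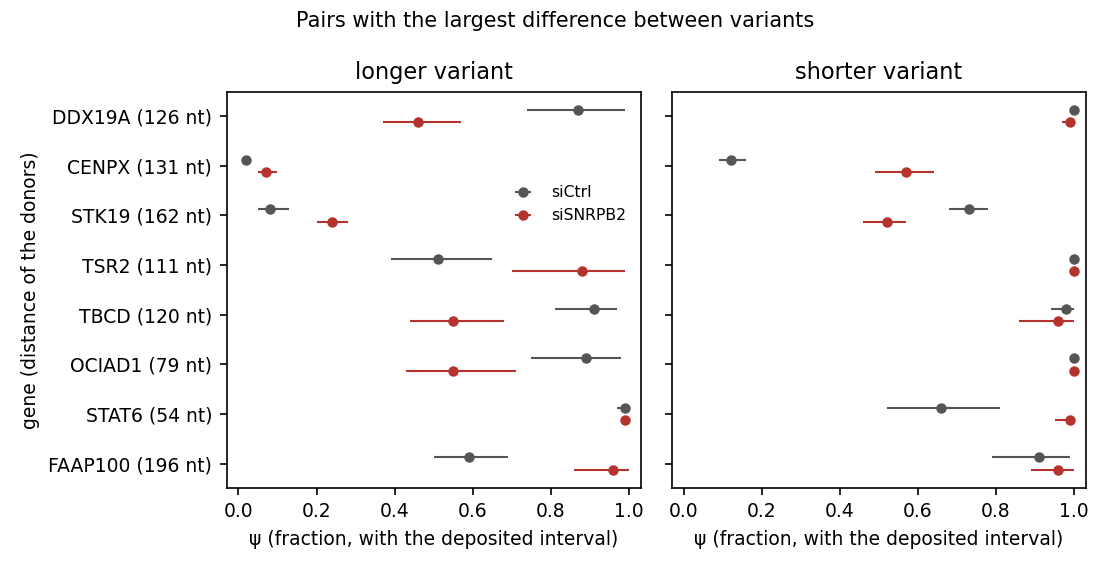
ψ (x axis, fraction) of the longer variant (left) and the shorter variant (right) in siCtrl (grey) and siSNRPB2 (red) for the 8 pairs with the widest gap between the ψ differences of their variants, with bars for the deposited interval. The longer variant was called in 6 genes, in STK19 together with the shorter, and in CENPX and STAT6 the shorter variant was called alone.

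Among pairs with at least 50 informative reads for each variant in each group, both variants fell together by the largest amounts in 5 genes. NT5C2, a cytosolic nucleotidase, fell from 0.92 to 0.24 in its longer and from 0.96 to 0.26 in its shorter form, and exclusion-only reads went from 0 to 29. METTL23, a methyltransferase, fell from 0.81 to 0.33 and from 0.83 to 0.27, with exclusion-only reads going from 0 to 21. PABPC4, a cytoplasmic poly(A)-binding protein, fell from 0.96 to 0.51 and from 0.97 to 0.44, with no exclusion-only read in either group. SNAP47, a SNARE protein, fell from 0.97 to 0.41 and from 0.98 to 0.50, and MBD5, a methyl-CpG binding domain protein, from 0.93 to 0.43 and from 0.96 to 0.52. The joint fall in SNAP47 depended on the event taken for each exon: with each exon's deepest event the ψ difference of the longer variant was 0.4 above that of the shorter, against -0.08 with shared flanking exons. SNAP47 and MBD5, too, had no exclusion-only read in either group. In MBD5 the flanking reads that fit both isoforms were 0 in siCtrl and 26 in siSNRPB2.

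Under the same read minimum both variants rose most in PCBP4, WWC1, EIF2B5, WDR41 and ZNF41. PCBP4, a poly(rC)-binding protein, rose from 0.09 to 0.67 in its longer and from 0.20 to 0.81 in its shorter form. Its inclusion-only reads went from 40 to 153 and from 44 to 115, and exclusion-only reads from 20 to 7. EIF2B5, the catalytic subunit of the translation factor eIF2B, rose from 0.37 (0.33 to 0.41) to 0.80 (0.68 to 0.92) and from 0.42 (0.36 to 0.48) to 0.86 (0.72 to 0.97). Its inclusion-only reads went from 451 to 330 and from 321 to 226, and the reads that fit both isoforms from 685 to 235. WWC1, the KIBRA protein of Hippo signalling, rose from 0.23 to 0.80 and from 0.26 to 0.93. WDR41, a partner of C9orf72, rose from 0.42 to 0.85 and from 0.47 to 0.90, and the zinc finger gene ZNF41 from 0.42 to 0.76 and from 0.51 to 0.89. Each WDR41 form had 73 inclusion-only reads in siCtrl and 82 in siSNRPB2, so these numbers do not tell the forms apart. No exclusion-only read was present in either group in WWC1, EIF2B5, WDR41 or ZNF41, so their ψ rested on exon reads against flanking reads. The reads that fit both isoforms went from 414 to 176 in WWC1, from 162 to 90 in WDR41 and from 97 to 43 in ZNF41. With shared flanking exons the variants of these 10 genes differed in their change by at most 0.1. Over all 97 pairs called in 1 direction, 69 had ψ differences within 0.1 of each other.

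The reads of the 2 variants were set against each other as an inclusion balance. It is the difference of the inclusion-only reads of the longer and the shorter variant, divided by the larger of the 2. It is 1 where no such read fits the shorter variant and -1 where none fits the longer. Reads from the extension count only for the longer variant, so a longer extension raises the balance. Reads that fit inclusion of either variant count for both and pull it towards 0. The balance could be given in both groups for 860 of the 928 pairs with shared flanking exons, since 68 had no inclusion-only read in at least 1 group. Over these 860 pairs it was above 0 in 509 in siCtrl and 528 in siSNRPB2, and below 0 in 234 and 223. Its median was 0.113 in siCtrl and 0.125 in siSNRPB2.

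The balance shifted by at least 0.1 towards the longer variant in 194 pairs and towards the shorter in 179, together 43.4% of the pairs. The median size of the shift was 0.078. In most pairs the balance kept its sign, above 0 in 463 and below 0 in 188. It turned from above to below 0 in 24 pairs and from below to above 0 in 33. It was 0 in both groups in 74 pairs, where the numbers of inclusion-only reads do not tell the variants apart. In the 593 pairs with at least 50 inclusion-only reads for the larger variant in each group, 222 shifted by at least 0.1 and 371 did not. In these deeper pairs 19 turned each way, and the balances of the 2 groups had a Pearson correlation of 0.923, a description over pairs that share libraries and sometimes exons. The scatter of the balances shows these pairs.

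**Figure D4:**
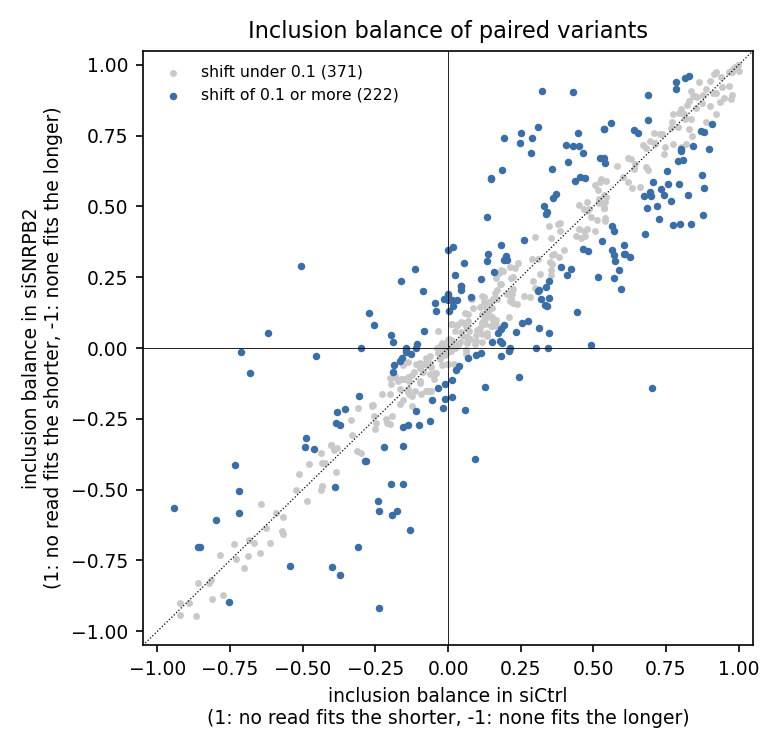
Inclusion balance in siSNRPB2 (y axis) against siCtrl (x axis) for 593 pairs with at least 50 inclusion-only reads for the larger variant in each group, where 1 means that no read fits the shorter and -1 that none fits the longer variant. The 371 grey pairs shifted by less than 0.1 and the 222 blue pairs by at least 0.1, and most points lie near the dotted line of equal balance.

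The 6 largest shifts towards the longer variant among pairs with at least 50 informative reads were in ARSJ, SPG7, GPR108, CCNC, MRPL11 and BAIAP2. In GPR108, a Golgi membrane protein, inclusion-only reads of the shorter variant went from 182 to 61 while those of the longer were 90 and 86. The balance moved from -0.505 to 0.291, with donors 82 nt apart. Neither form was called: ψ was 0.55 and 0.68 for the longer and 0.98 and 0.84 for the shorter, and no exclusion-only read was present. ARSJ, an arylsulfatase, had 28 longer and 36 shorter inclusion-only reads in siCtrl but 15 and 0 in siSNRPB2. The ψ of its shorter variant fell from 0.32 (0.24 to 0.42) to 0.01 (0.00 to 0.04). MRPL11, of the mitochondrial ribosome, fell in both forms, from 0.23 to 0.05 and from 0.32 to 0.03. Its inclusion-only reads went from 64 to 13 and from 86 to 7, and its exclusion-only reads from 69 to 121. ARSJ and, in siSNRPB2, MRPL11 thus had few inclusion-only reads, and the other 3 pairs also rested on few. SPG7, a mitochondrial protease, had 10 and 10 in siCtrl and 7 and 0 in siSNRPB2. CCNC (cyclin C) had 20 and 20 and then 11 and 3, and BAIAP2, an actin regulator, 6 and 4 and then 7 and 0.

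Towards the shorter variant the 6 largest shifts were in SGCE, MAX, TPRA1, FAM49B, ERI1 and COPS5, all with ψ of at most 0.08 in each form and group, and none was called. SGCE, epsilon-sarcoglycan, had 22 longer and 0 shorter inclusion-only reads in siCtrl and 2 and 18 in siSNRPB2, beside 252 and 299 exclusion-only reads. Its balance turned from 1 to -0.889. MAX, the partner of MYC, had 8 and 0 inclusion-only reads in siCtrl and 15 and 15 in siSNRPB2. With so few reads for the included forms, these are shifts within exons that were nearly always skipped. The plot of reads by variant sets 9 of these pairs side by side.

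**Figure D5:**
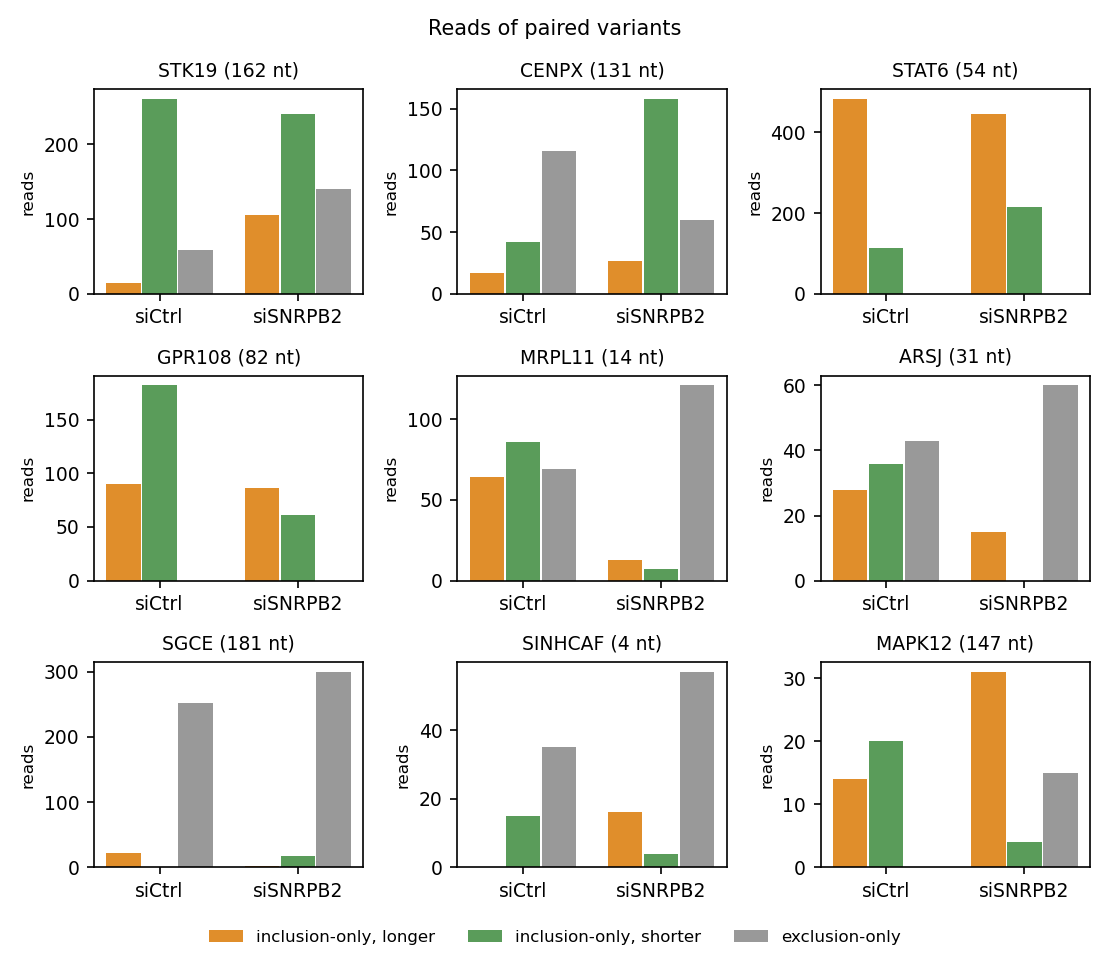
Reads (y axis) that fit only inclusion of the longer variant (orange), only inclusion of the shorter variant (green) or only skipping (grey) in siCtrl and siSNRPB2 for 9 genes, with the distance of the donors in brackets. In GPR108 the shorter variant drops from 182 to 61 reads beside a level longer variant, and in CENPX the shorter rises from 42 to 158.

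The variants were also described by the distance of their donors. ψ differences at least 0.1 apart were found in 19.1% of pairs at 1 to 10 nt, 23.5% at 11 to 50 nt and 28.3% at 51 to 200 nt. The balance shifted by at least 0.1 in 38.0%, 40.2% and 48.5%. Where both donors were coding, 29.3% of pairs with a spacing that keeps the frame and 28.8% of the others had ψ differences at least 0.1 apart. In pairs with both donors in a 3' UTR this share was 6.06% of 66, and in a 5' UTR it was 21.8% of 101, where 54.3% of balances shifted. The 3' UTR pairs moved little in either form. Their median size of the ψ difference was 0.02 for longer and 0.01 for shorter variants, against 0.04 and 0.04 over all pairs. None of these differences was tested.

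Of the 58 pairs with donors 4 nt apart, 16 (27.6%) had a call, against 24.0% of all pairs. Both variants fell in 5, both rose in 7, and SINHCAF had opposite calls. Of their 116 exons, 13 (11.2%) were lower and 16 (13.8%) higher, against 7.72% and 7.49% of all exons with enough reads, a difference that was not tested. The following examples were chosen after their values were seen. MRPL55, of the mitochondrial ribosome, fell from 0.89 to 0.15 in the longer and from 0.87 to 0.11 in the shorter form, with exclusion-only reads going from 5 to 34. ATXN3, a deubiquitinase, fell from 0.55 to 0.09 and from 0.56 to 0.10, and LARP4B, an RNA-binding protein, from 0.11 to 0.01 in both forms. Each LARP4B form had 29 inclusion-only reads in siCtrl and 0 in siSNRPB2, so these numbers do not tell the forms apart. PRRC2C, an RNA-associated protein, rose from 0.23 to 0.52 and from 0.17 to 0.37, and its exclusion-only reads went from 117 to 43. The balance of PRRC2C was 0.355 in siCtrl and 0.389 in siSNRPB2.

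The match of the donors to CAGGTAAGT was set beside the balance in the 269 pairs with both donors read and at least 50 inclusion-only reads. The balance was above 0 in siCtrl in 71.8% of the 117 pairs whose longer donor matched better, in 57.5% of the 80 with equal matches and in 54.2% of the 72 whose shorter donor matched better. In siSNRPB2 these shares were 76.9%, 62.5% and 52.8%. Shifts of at least 0.1 went both ways in each class. There were 24 to the longer and 21 to the shorter variant where the longer donor matched better, 23 and 16 with equal matches, and 10 and 12 where the shorter matched better. A GC donor in the shorter variant was found in 54 pairs, of which 12 (22.2%) had a call, against 24.0% of all 946 pairs.

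Pairs that compete at the other end, on 1 donor with 2 3' splice sites at most 200 nt apart, were taken by the same rule and gave 1893 pairs of 3117 exons. Of these exons 8.53% were lower and 8.69% higher. ψ differences at least 0.1 apart were found in 20.1% of them against 24.7% for competing donors, and balance shifts of at least 0.1 in 40.0% against 43.4%. Only the longer variant was called in 120 pairs and only the shorter in 125, where competing donors had 80 and 47. The differences between the 2 kinds of pair were not tested.

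Members in 6 gene lists were counted beside the background shares given above. In mitosis and cell cycle genes, 11 of 62 genes had pairs, and of 24 exons 4 fell and 5 rose, with a median ψ difference of 0.01 against 0 over all exons with enough reads. Both forms of CDC25C, the phosphatase that activates CDK1, fell, from 0.88 to 0.09 and, 21 nt shorter, from 0.97 to 0.45. Of the centrosome genes CEP57 and CEP63 only the longer forms were called, and these fell from 0.22 to 0.06 and from 0.58 to 0.35. The shorter form of CEP57 went from 0.19 to 0.11 without a call, and its inclusion-only reads from 23 to 5. Both forms of the spindle protein NUMA1 rose, from 0.38 to 0.82 and from 0.41 to 0.83, as did those of the kinase CDK11B, from 0.39 to 0.52 and from 0.83 to 0.98. Each NUMA1 form had 63 inclusion-only reads in siCtrl and 37 in siSNRPB2, so these numbers do not tell the forms apart. CDK11B has the nearly identical neighbour CDK11A, so its reads are uncertain. The longer form of CCNL1, cyclin L1, rose from 0.02 to 0.12. These genes except CDK11B fell outside the naming rule and were named for their calls after their values were seen. CEP57 and NUMA1 had fewer than 50 informative reads in siSNRPB2. ANAPC5 and AURKB met the naming rule and had no call. ψ of ANAPC5 was 0.49 and 0.67 in the longer form and 0.99 in both groups in the shorter. AURKB stood at 0.99 or above in each form and group.

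In the list drawn up for factors on the 5' splice site side, 5 of 27 genes had pairs, and of 11 exons 1 fell and 1 rose, with a median of -0.01. The longer form of DDX39A, an RNA helicase of mRNA export, rose from 0.05 to 0.16. The form that fell was of NOL3, from 0.94 to 0.62; NOL3 is known as a repressor of apoptosis and does not belong with these factors. Without it, of 8 exons in 4 genes 0 fell and 1 rose, with a median of 0. The exon that rose was that of DDX39A, which is not specific to the 5' splice site. EFTUD2, the GTPase of the U5 snRNP, had 0.27 and 0.31 in its longer form and 1 in both groups in its shorter form. The shorter form had 1202 inclusion-only reads in siCtrl and 1169 in siSNRPB2.

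Of U2 and 3' splice site factors, 1 of 28 genes had a pair, SUGP1, a partner of SF3B1, with 0 of 2 exons called and a median of -0.17. Its ψ was 0.47 and 0.33 in the longer and 0.88 and 0.68 in the shorter form. Of SR proteins and hnRNPs, 3 of 45 genes had pairs and 0 of 9 exons was called, with a median of 0. HNRNPH3 had the most reads of these, with 5437 and 6440 inclusion-only reads for its longer form. The ψ of that form was 0.46 (0.45 to 0.48) and 0.54 (0.52 to 0.55). No exclusion-only read was present, and 11025 and 11259 reads fit both isoforms. The ψ differences of 0.08 in the longer and 0.06 in the shorter form were under the 0.1 needed for a call. Their Bayes factors were 1e+12 and 725.76. Of chromatin regulators, 9 of 74 genes had pairs, and 2 of 18 exons fell and 0 rose, with a median of -0.025. The shorter form of the histone methyltransferase SETD2 fell from 0.12 to 0.01, an example chosen after its values were seen. KAT6A, TET2 and NSD2, which met the naming rule, had no call. Of actin, adhesion and trafficking genes, 7 of 57 had pairs, and of 16 exons 0 fell and 1 rose, with a median of 0.005. No pair was measured in BCL2L1, WT1, FGFR1 or FGFR2, known for competing donors.

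Members just inside and just outside the limits of the rule had these values. In the 16 pairs whose fewest informative reads were 10, the median size of the ψ difference was 0.04 for longer and 0.10 for shorter variants, and in the 14 pairs at 9 reads it was 0.03 and 0.13. In the 27 pairs with donors 181 to 200 nt apart it was 0.03 and 0.03, and in the 24 pairs at 201 to 220 nt 0.045 and 0.03. No exclusion-only read was present in either group in 494 pairs (52.2%), and ψ then rested on exon reads against flanking reads. ψ differences at least 0.1 apart were found in 28.5% of these pairs and in 20.6% of the others. Among all exons with enough reads 50.9% had no exclusion-only read.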

How the data were processed

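Per the submitters' processing notes, reads of the 4 MDA-LM2 libraries were mapped to hg38 using STAR 2.7. Per the file headers, the authors estimated ψ of each skipped exon with MISO and deposited it as a fraction, 1 value per group, with an interval and with the number of reads per compatibility class. The authors' deposited comparison gives for each event the change in ψ and a Bayes factor, the ratio of how well a change and no change account for the reads, with a ceiling of 1e+12. Not given in the sources used here are whether libraries were merged, the interval's level, the event annotation and the MISO version. The siCtrl file listed 42159 events with 100579230 reads and the siSNRPB2 file 42670 with 93580246, where a read can count for several events.

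Each pair was represented by the 2 events with shared flanking exons and the most informative reads, where such events existed (928 pairs), and otherwise by the deepest event of each exon. Genes, exon classes and donor bases came from GENCODE release 29; no genome sequence was used. Pairs named by rule had at least 50 informative reads per variant and group, 1 per protein-coding gene: the 8 widest gaps between variants, the 5 largest changes of both variants per direction, opposite calls, the 6 largest balance shifts per direction, and up to 3 per gene list. Other named pairs were chosen after their values were seen, some with fewer reads. Not all pairs named for a list are described, and some items are not reported here. The members and lists were chosen with earlier results of these data known. Intervals cover the reads only, and with 1 value per group there is no replicate check. Alternatives changed thresholds, read minimum, distance, events and estimator 1 at a time; Fisher's exact test on informative reads was adjusted by Benjamini-Hochberg over every exon with enough reads. The pairing and balance code was tested on made-up events, and Fisher's exact test with its adjustment on simulated reads. The calling rule on ψ difference and Bayes factor was not tested in this way. The software was scipy 1.17.1, numpy 2.4.6, matplotlib 3.10.9 and pandas 2.3.3 under Python 3.11.15.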

Additional observations from a re-analysis of the deposited data

How the results depend on the processing

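No paired analysis was possible because the deposited tables hold 1 value per group and none per library, and leaving out a replicate was not possible for the same reason. The main counts were 146 lower and 149 higher members, 97 pairs called in 1 direction, 3 in opposite directions, 234 with ψ differences at least 0.1 apart, and 194 and 179 balance shifts to the longer and shorter variant. With at least 50 informative reads required before events were paired (587 pairs) these were 86, 78, 63, 1, 94, 93 and 98. With donors at most 50 nt apart they were 91, 95, 62, 1, 119, 97 and 95. With only exons that had exclusion-only reads in each file they were 52, 56, 34, 2, 60, 72 and 63. These 3 settings test fewer exons. Fisher's exact test on reads called 89 members lower and 101 higher, with 76 pairs in 1 direction and 2 in opposite directions. An exon with no exclusion-only read in either group cannot be called by that test, and 881 of the 1697 members were of this kind. Opposite calls numbered 1 when a Bayes factor of 100 or more was required and 1 with a ψ difference of at least 0.2. With the share of inclusion-only reads in place of ψ, 92 pairs were at least 0.1 apart. By that share the gap is always 0 in the 494 pairs without an exclusion-only read. In ψ, 100 pairs were at least 0.2 apart. Balance shifts of at least 0.2 numbered 112 and 100, and with at least 50 inclusion-only reads shifts of at least 0.1 numbered 107 and 115. For those changes that do not follow from fewer exons, a stricter threshold or missing exclusion-only reads, the cause was not tested. Where inclusion-only reads are few, a few reads can turn the sign of the balance.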

Other observations

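ψ differences and balance shifts of the same pairs were set side by side. Of the 234 pairs with ψ differences at least 0.1 apart, 225 had a balance, and in 153 of them the balance also shifted by at least 0.1. In 148 of these it shifted towards the variant with the more positive ψ difference. The 2 measures rest partly on the same reads. With at least 50 informative reads, 54 of 88 such pairs shifted. Of the 97 pairs called in 1 direction, 95 had a balance, and 53 shifted by less than 0.1.

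Large balance shifts also occurred in genes outside those named by rule. In ATG9A, an autophagy membrane protein, ψ was 0.93 and 0.98 in the longer form and 0.98 in both groups in the shorter form, with donors 10 nt apart. Its inclusion-only reads were 37 longer and 97 shorter in siCtrl and 92 and 87 in siSNRPB2, and the balance moved from -0.619 to 0.054. In ARHGAP22, with donors 48 nt apart, they were 128 and 38 in siCtrl and 61 and 71 in siSNRPB2. Its balance moved from 0.703 to -0.141, and the shorter form rose from 0.44 to 0.92. Both genes were chosen after their values were seen.

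A pair in CBWD3 and a pair in CBWD5, nearly identical genes on chromosome 9, had the same number of reads in every class, with 232 and 218 inclusion-only and 116 exclusion-only reads in siCtrl. They were the only 2 pairs at different 3' splice sites with equal read numbers throughout.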
